A study of Mus musculus with 4 samples.

Results

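The genes described here are 8 members of the cytokine signalling network that runs through STAT factors and their targets: the transcription factors Stat3, Stat5a and Stat5b, the feedback inhibitors Socs2, Socs3 and Cish, and the transcription factors Cebpb and Cebpd. They were chosen by name, and 8 of 8 had a row in each of the 4 count files, which list 31781 genes between them. The mice carried the MMTV-PyMT transgene, a viral oncogene under a promoter active in mammary epithelium, and were either activated for PKA, the cAMP-dependent protein kinase A, or wild type (WT). Each of the 4 groups was 1 library: PKA hyperplasia and WT hyperplasia from mammary glands at 8 to 9 weeks, and PKA tumor and WT tumor at 16 to 20 weeks by the sample labels, or 22 weeks by the series design. Single cells were FACS sorted by a gate that is not given and counted with the 10x Genomics 3' assay, which counts unique molecular identifiers (UMIs), 1 for each captured RNA molecule. The way PKA was activated and the number of mice behind each library are not given in the labels.

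Cytokines and hormones such as IL-6 family members, prolactin and growth hormone bind receptors whose JAK kinases phosphorylate STAT proteins, which then enter the nucleus and activate genes. SOCS proteins and CIS, the product of Cish, are encoded by STAT targets and act back on the receptors. In the mammary gland, STAT5A is required for the alveolar cells of pregnancy and milk protein expression, STAT3 drives the cell death of involution after weaning, and C/EBPβ and C/EBPδ act in duct and alveolar development and in involution. C/EBP genes and several STAT targets are also immediate early genes, which many stimuli, tissue dissociation included, induce within a short time.

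The promoter windows of Socs3, Cish and Cebpb are shown because they are the first windows of members that hold a STAT motif or a cAMP-linked one. They come from RefSeq, build GRCm38.p6, and run 5′ to 3′ on the gene's strand over 300 bases, 250 before and 50 from the start site on. Capitals mark the STAT motif TTCNNNGAA and the cAMP response element half-site TGACG, which reads CGTCA where it lies on the other strand. The full element TGACGTCA was in none of the windows of members. Windows were found for 6 of the 8 members, with none for Socs2 and Cebpd. The windows of Stat3 and Stat5b and the first of Stat5a held no such letters, and a second Stat5a window held 3 half-sites.

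Socs3, chr11:117969317-117969616, minus strand:
Socs3: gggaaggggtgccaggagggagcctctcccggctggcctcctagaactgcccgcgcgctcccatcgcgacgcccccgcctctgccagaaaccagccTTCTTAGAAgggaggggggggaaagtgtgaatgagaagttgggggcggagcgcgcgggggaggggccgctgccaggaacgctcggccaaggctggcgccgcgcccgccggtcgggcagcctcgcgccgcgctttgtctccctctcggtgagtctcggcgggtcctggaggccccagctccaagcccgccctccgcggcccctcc
Cish, chr9:107296409-107296708, plus strand:
Cish: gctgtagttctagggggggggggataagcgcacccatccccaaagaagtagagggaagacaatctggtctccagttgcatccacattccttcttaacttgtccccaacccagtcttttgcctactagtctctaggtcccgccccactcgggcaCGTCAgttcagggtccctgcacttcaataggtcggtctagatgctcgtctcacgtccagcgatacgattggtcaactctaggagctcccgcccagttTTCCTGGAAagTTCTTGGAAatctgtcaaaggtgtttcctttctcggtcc
Cebpb, chr2:167688665-167688964, plus strand:
Cebpb: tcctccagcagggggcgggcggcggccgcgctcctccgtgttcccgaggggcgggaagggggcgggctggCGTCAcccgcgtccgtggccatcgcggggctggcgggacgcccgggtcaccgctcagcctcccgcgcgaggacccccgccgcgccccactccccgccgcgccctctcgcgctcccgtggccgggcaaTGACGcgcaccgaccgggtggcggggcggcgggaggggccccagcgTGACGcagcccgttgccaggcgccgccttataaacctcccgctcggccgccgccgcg

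Counting the start base as 0, the Socs3 window held 1 STAT motif at positions -154 to -146. The Cish window held 2 STAT motifs, at positions 0 to 8 and 11 to 19, with 1 half-site on the other strand at -97 to -93. The Cebpb window held 3 half-sites, at -180 to -176 on the other strand, -53 to -49 and -7 to -3, and no STAT motif. Searched on both strands, the STAT motif was in 8.3% of 32851 promoter windows of this length, the half-site in 20.8% and the full element in 1.79%. A match describes letters and shows no binding.

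In the GENCODE annotation of GRCm38, Stat3 (chr11:100885098-100939540, minus strand) and Stat5a (chr11:100859351-100885169, plus strand) are neighbours whose 3′ ends overlap tail to tail by 72 bases. Cebpb overlaps Tmem189 over 908 bases and Cebpd overlaps Spidr over 1808 bases, both on the opposite strand. Cish overlaps 2 transcripts on the opposite strand, one over 1167 and one over 1459 bases. The strand setting of the authors' counting is not given, so reads in these stretches may belong to either gene.

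The authors annotated 3818 cells of PKA hyperplasia, 3808 of WT hyperplasia, 2638 of PKA tumor and 5181 of WT tumor, with a median of 2557 to 5890.5 UMIs per cell. Pairs of libraries shared 16 to 24 cell barcodes. The authors' classes are used throughout: Luminal Progenitor 1, Luminal Progenitor 2, Mature Luminal and Basal cells in glands, and Luminal Progenitor 1, Mature Luminal, Lumino-Basal and EMT-like cells in tumors. The markers that the authors used were high in most classes, such as the prolactin receptor gene Prlr in Mature Luminal tumor cells at 2661 CPM in PKA, against 1738 CPM in WT. For the cells the authors named EMT-like this was not so: 2 of their 4 markers, Trim29 and Cldn6, were at 0 in both libraries, and Sox4 was at 340 CPM in PKA, against 244 CPM in WT, below the 789 CPM in PKA, against 685 CPM in WT of the tumor Luminal Progenitor 1 cells. The milk protein gene Lalba, a progenitor marker, was at 6911 CPM in PKA, against 1607 CPM in WT cells of that class. In Lumino-Basal cells, Krt14 was at 727 CPM in PKA, against 948 CPM in WT, and Krt8 at 2770 CPM in PKA, against 2012 CPM in WT. The remaining markers of the EMT-like and Lumino-Basal lists, Vim and Cd14, are not given here, so these levels cover only part of each list.

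UMIs were summed over the cells of a class in a library and scaled to 1000000 UMIs of the class, written CPM. A lower sum may come from fewer expressing cells or from less RNA per cell, which sums cannot tell apart. With 1 library per group there is no replicate, so no test was made. The 95% intervals given in brackets with each log2 ratio of PKA over WT cover counting error only and say nothing of differences between mice. A gene was called higher or lower in PKA cells where it differed by 2-fold or more with its interval on 1 side of 0, and genes with fewer than 10 UMIs over the pair of libraries were not considered.

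**Figure D1:**
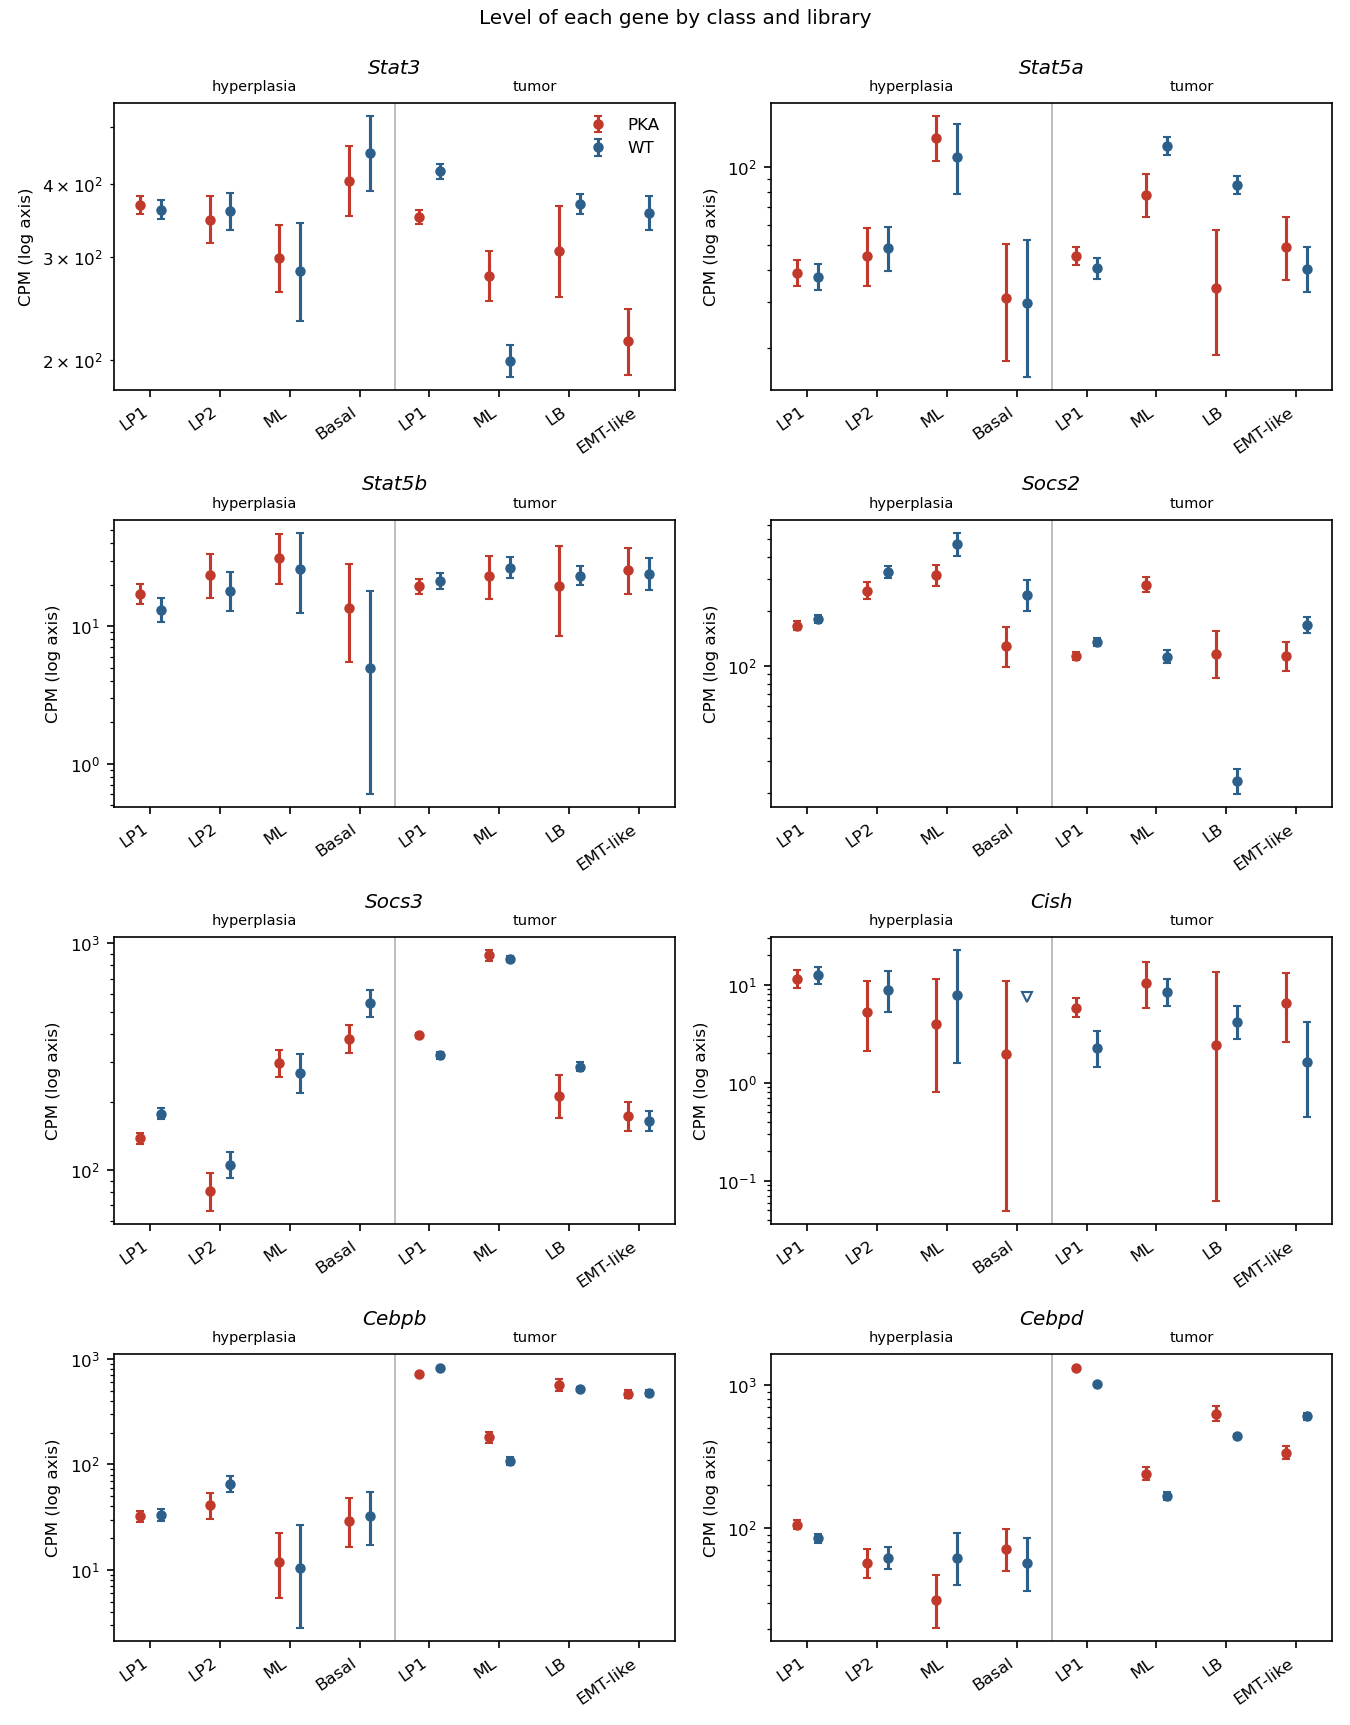
CPM (log axis) of each of the 8 genes in each class of the 4 libraries, PKA in red left of WT in blue, with exact 95% Poisson intervals; LP1 and LP2 are Luminal Progenitor 1 and 2, ML Mature Luminal and LB Lumino-Basal cells, and the open triangle marks the limit for a count of 0. Cebpb and Cebpd stand far higher in tumor than in hyperplasia in both genotypes, and Socs2 of Mature Luminal and Lumino-Basal tumor cells is 281 and 117 CPM in PKA, against 113 and 23.4 CPM in WT.

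Over all annotated cells, 0 of 8 genes were called at either stage. In hyperplasia, 2.75% of all genes were called higher and 2.52% lower in PKA cells. In tumors, 7.2% were called higher and 5.97% lower.

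Within the classes of hyperplasia, no member was called in either direction. The share of all genes called higher and lower in PKA cells was 2.01% and 2.63% in Luminal Progenitor 1 cells, where 8 members had enough UMIs. It was 1.8% and 1.98% in Luminal Progenitor 2 cells, with 8 members measured, 3.71% and 4.48% in Mature Luminal cells, with 7, and 2.17% and 2.97% in Basal cells, with 6. The unmeasured pairs were Cish in Mature Luminal and Basal cells and Stat5b in Basal cells.

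Within the classes of tumors, 5 of 32 pairs of a member and a class were called. In Luminal Progenitor 1 cells 1 of 8 members, Cish, was called higher and 0 lower, where 7.2% and 4.41% of all genes were. In Mature Luminal cells 1 of 8, Socs2, was called higher and 0 lower, where 7.67% and 2.72% of all genes were. In Lumino-Basal cells 1 of 8, Socs2, was called higher and 1 of 8, Stat5a, lower, where 7.47% and 7.16% of all genes were. In the cells named EMT-like 1 of 8, Cish, was called higher on 7 UMIs in PKA and 4 in WT, and 0 lower, where 7.02% and 4.56% of all genes were. At these background shares, 1 call among 8 genes does not set the members of a class apart from other genes. The median log2 ratio of the members was 0.01 in tumor Luminal Progenitor 1 cells, 0.42 in Mature Luminal, -0.20 in Lumino-Basal and 0.02 in EMT-like cells, beside 0.01, 0.12, 0.02 and 0.06 for all genes measured.

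**Figure D2:**
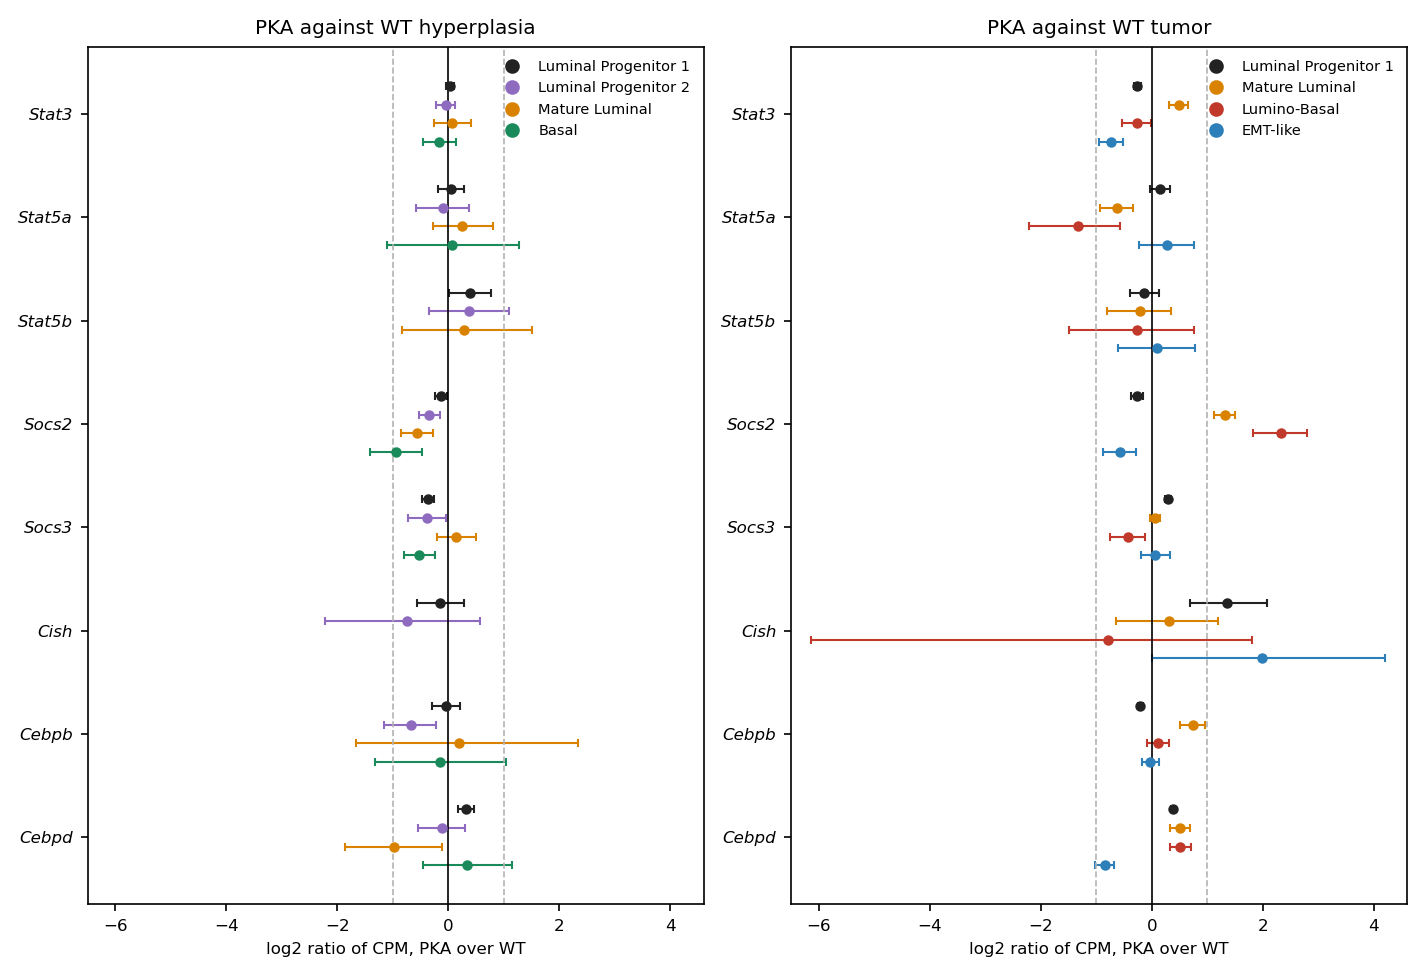
Log2 ratio of CPM, PKA over WT, of each gene in each class, with exact 95% intervals from counting error; hyperplasia is on the left and tumor on the right, and dashed lines mark 2-fold. In hyperplasia every measured point lies between the dashed lines, and in tumors Socs2 spans -0.57 in EMT-like cells to 2.33 in Lumino-Basal cells.

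Stat3, which transmits IL-6 family signals, was nearly level between genotypes in hyperplasia and differed by class in tumors. In hyperplasia it was at 369 CPM in PKA, against 362 CPM in WT Luminal Progenitor 1 cells, a log2 ratio of 0.03 [-0.05 to 0.10]. The other 3 classes of glands ran between 299 and 405 CPM in PKA and between 284 and 453 CPM in WT, with intervals that held 0. In tumors Stat3 was lower in PKA Luminal Progenitor 1 cells, at 351 CPM against 421 CPM in WT, a log2 ratio of -0.26 [-0.32 to -0.20]. It was also lower in PKA cells named EMT-like, at 215 CPM against 356 CPM in WT, -0.73 [-0.94 to -0.52]. Mature Luminal cells went the other way, at 278.6 CPM in PKA, against 199 CPM in WT, 0.48 [0.31 to 0.65]. In Lumino-Basal cells Stat3 was at 308 CPM in PKA, against 370 CPM in WT, -0.27 [-0.54 to -0.01]. None of these reached 2-fold.

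Stat5a, the main transmitter of prolactin signals in mammary epithelium, was highest in Mature Luminal cells in each of the 4 libraries. Those cells had 130 CPM in PKA, against 109 CPM in WT hyperplasia, while the other classes of glands had 31.2 to 45.3 CPM in PKA and 29.8 to 48.6 CPM in WT. No interval of a hyperplasia class excluded 0. In tumors Stat5a was lower in PKA Mature Luminal cells, at 78.2 CPM against 121 CPM in WT, -0.63 [-0.94 to -0.34]. It was lower by 2.51-fold in PKA Lumino-Basal cells, at 34.2 CPM against 85.7 CPM in WT, -1.33 [-2.21 to -0.57], on 14 UMIs in 66 PKA cells and 572 UMIs in 1198 WT cells. In Luminal Progenitor 1 cells the level was 45.3 CPM in PKA, against 40.6 CPM in WT, 0.16 [-0.02 to 0.34], and in EMT-like cells 48.9 CPM in PKA, against 40.5 CPM in WT, an interval that also held 0.

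Stat5b, the close paralogue of Stat5a and the main transmitter of growth hormone signals in liver, had low counts everywhere. In hyperplasia Luminal Progenitor 1 cells it had 139 UMIs in PKA and 103 in WT, or 17.3 CPM in PKA, against 13.1 CPM in WT, 0.40 [0.02 to 0.78]. In the tumor classes it lay between 19.5 and 25.8 CPM in PKA and between 21.4 and 26.6 CPM in WT, and every interval held 0. Unlike Stat5a, Stat5b of Mature Luminal tumor cells did not stand apart from the other classes of its library, at 23.0 CPM in PKA, against 26.6 CPM in WT.

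Socs2, best known as an inhibitor of growth hormone signalling, gave the largest measured ratio among the 8 genes. In hyperplasia it was lower in PKA cells of each class: 167 CPM in PKA, against 182 CPM in WT Luminal Progenitor 1 cells, -0.13 [-0.23 to -0.02], and 260 CPM in PKA, against 329 CPM in WT Luminal Progenitor 2 cells, -0.34 [-0.53 to -0.15]. Mature Luminal cells of glands had 316 CPM in PKA, against 469 CPM in WT, -0.57 [-0.85 to -0.28]. Basal cells had 129 CPM in PKA, against 246 CPM in WT, -0.94 [-1.41 to -0.47], on 66 and 99 UMIs. The 4 intervals lay below 0, and none of the 4 differences reached 2-fold.

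In tumors the direction depended on the class. Socs2 of Mature Luminal cells was at 281 CPM in PKA, against 113 CPM in WT, 2.49-fold higher in PKA, 1.32 [1.13 to 1.51], on 403 and 551 UMIs. Socs2 of Lumino-Basal cells was at 117 CPM in PKA, against 23.4 CPM in WT, 5.01-fold higher in PKA, 2.33 [1.83 to 2.80]. The 48 PKA UMIs behind that value came from 24 cells, and 12 of them from 1 cell; without the cell with the most Socs2 UMIs in each library the log2 ratio was 1.99 [1.43 to 2.53]. In Luminal Progenitor 1 cells Socs2 was lower in PKA, at 114 CPM against 136 CPM in WT, -0.26 [-0.37 to -0.16], and in EMT-like cells likewise, at 114 CPM against 169 CPM in WT, -0.57 [-0.88 to -0.28].

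Markers of fibroblasts also differed between these libraries. In Mature Luminal tumor cells the summed level of 6 fibroblast markers was 30.0 CPM in PKA, where 3 of 6 were at 0, and 901 CPM in WT, where 4 of 6 were at 0. Nearly all of it was decorin (Dcn), at 27.9 CPM in PKA, against 900 CPM in WT, with Col1a2, Col3a1 and Lum at 0 in both. In Lumino-Basal cells the same sum was 737 CPM in PKA, against 117 CPM in WT, with Dcn at 681 CPM in PKA, against 47.8 CPM in WT and none at 0. Leaving out every cell with a UMI of 17 macrophage, fibroblast or endothelial markers kept 152 PKA and 549 WT Mature Luminal cells, with a Socs2 log2 ratio of 1.41, and 50 PKA and 1090 WT Lumino-Basal cells, with a Socs2 log2 ratio of 2.54 and a Stat5a log2 ratio of -1.70. Basal cells of glands, where Socs2 and Socs3 were lower in PKA, had summed fibroblast markers of 807 CPM in PKA, against 1639 CPM in WT with 0 of 6 at 0, summed macrophage markers of 13.6 CPM in PKA, with 5 of 7 at 0, and 358 CPM in WT, with 0 of 7 at 0, and summed endothelial markers of 58.5 CPM in PKA, against 206 CPM in WT, with 0 of 4 at 0. Leaving out the marker-positive cells kept 169 PKA and 123 WT Basal cells, with log2 ratios of -0.81 for Socs2 and -0.69 for Socs3.

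Socs3, the inhibitor induced by STAT3 that acts on the IL-6 receptor chain gp130, was lower in PKA cells of 3 of the 4 classes of hyperplasia and mixed in tumors. In Luminal Progenitor 1 cells of glands it was at 138 CPM in PKA, against 178 CPM in WT, -0.36 [-0.48 to -0.25], and in Luminal Progenitor 2 cells at 80.8 CPM in PKA, against 106 CPM in WT, -0.39 [-0.73 to -0.05]. Basal cells had 380 CPM in PKA, against 545 CPM in WT, -0.52 [-0.80 to -0.23], while Mature Luminal cells had 296 CPM in PKA, against 268 CPM in WT with an interval that held 0. In tumors the sign in Luminal Progenitor 1 cells was the opposite one, at 394 CPM in PKA, against 321 CPM in WT, 0.29 [0.23 to 0.36]. Mature Luminal tumor cells, which had the highest Socs3 level, were at 887 CPM in PKA, against 854 CPM in WT, 0.06 [-0.04 to 0.15], a ratio that was -0.14 with TMM scaling. Lumino-Basal cells were lower in PKA, at 212 CPM against 286 CPM in WT, -0.43 [-0.76 to -0.12]. EMT-like cells were at 173 CPM in PKA, against 165 CPM in WT, with an interval that held 0.

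Cish encodes CIS, a STAT5 target that dampens STAT5 signalling, and it was rare: no class had more than 12.6 CPM. In hyperplasia Luminal Progenitor 1 cells it had 92 UMIs in PKA and 99 in WT, or 11.4 CPM in PKA, against 12.6 CPM in WT, -0.14 [-0.57 to 0.28]. In tumor Luminal Progenitor 1 cells it had 81 UMIs in PKA and 24 in WT, or 5.86 CPM in PKA, against 2.29 CPM in WT, 2.56-fold higher in PKA, 1.36 [0.68 to 2.08]. No cell there held more than 2 Cish UMIs. Mature Luminal tumor cells had 10.5 CPM in PKA, against 8.40 CPM in WT, 0.32 [-0.64 to 1.20]. Lumino-Basal cells held 1 UMI in PKA and 28 in WT. In EMT-like cells the log2 ratio was 1.98 [0.01 to 4.20], and it held its call under 1 of 6 alternative settings.

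Cebpb encodes C/EBPβ, a bZIP transcription factor with roles in alveolar differentiation and the acute phase response. In hyperplasia Luminal Progenitor 1 cells it was at 32.3 CPM in PKA, against 33.2 CPM in WT, -0.04 [-0.29 to 0.21]. It was lower in PKA Luminal Progenitor 2 cells, at 40.8 CPM against 65.3 CPM in WT, -0.68 [-1.16 to -0.22]. In Mature Luminal and Basal cells of glands it had 9 and 15 UMIs in PKA and 4 and 13 in WT. In tumors it was lower in PKA Luminal Progenitor 1 cells, at 714 CPM against 822 CPM in WT, -0.20 [-0.24 to -0.16], and higher in PKA Mature Luminal cells, at 180 CPM against 108 CPM in WT, 0.74 [0.52 to 0.95]. In Lumino-Basal and EMT-like cells it was at 564 and 464 CPM in PKA, against 519 and 474 CPM in WT, and both intervals held 0.

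Cebpd encodes C/EBPδ, a STAT3 target of mammary involution. Of the 8 genes it had the largest ratio over all tumor cells, 1148 CPM in PKA, against 649 CPM in WT, 0.82 [0.79 to 0.85], which was larger than in any of the 4 classes. Luminal Progenitor 1 tumor cells, where Cebpd was highest, were at 1322 CPM in PKA, against 1013 CPM in WT, 0.38 [0.35 to 0.42], and made up 2157 of 2638 PKA cells and 2343 of 5181 WT cells. With each class weighted equally the tumor log2 ratio was 0.18. Mature Luminal tumor cells were at 241 CPM in PKA, against 169 CPM in WT, 0.51 [0.33 to 0.70], and Lumino-Basal cells at 632 CPM in PKA, against 442 CPM in WT, 0.52 [0.33 to 0.70]. EMT-like cells were lower in PKA, at 336 CPM against 605 CPM in WT, -0.85 [-1.02 to -0.68].

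In hyperplasia Cebpd was at 106 CPM in PKA, against 84.9 CPM in WT Luminal Progenitor 1 cells, 0.32 [0.17 to 0.47]. Mature Luminal cells of glands held 24 Cebpd UMIs in each library, or 31.6 CPM in PKA, against 62.5 CPM in WT, -0.98 [-1.86 to -0.11], just under the 2-fold line. The summed fibroblast markers of those cells were 120 CPM in PKA, with 3 of 6 at 0, and 609 CPM in WT, with 2 of 6 at 0. Leaving out the marker-positive cells kept 212 PKA and 65 WT cells, with a Cebpd log2 ratio of -0.82. Luminal Progenitor 2 and Basal cells had 57.4 and 72.1 CPM in PKA, against 62.1 and 57.2 CPM in WT, and both intervals held 0.

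In Luminal Progenitor 1 cells the stage made a larger difference than the genotype for the C/EBP genes and Socs3. In PKA cells Cebpb was 714 CPM in tumor and 32.3 CPM in hyperplasia, a tumor over hyperplasia fold of 22.1, and in WT cells 822 CPM in tumor and 33.2 CPM in hyperplasia, a fold of 24.7. The fold of Cebpd was 12.4 in PKA and 11.9 in WT, and that of Socs3 was 2.85 in PKA and 1.81 in WT. Stat3 moved little, with folds of 0.954 in PKA and 1.16 in WT, as did Stat5a, with 1.16 in PKA and 1.08 in WT. Stat5b had a fold of 1.13 in PKA, with a log2 interval of -0.12 to 0.48 that held 0, and of 1.63 in WT, with an interval of 0.37 to 1.06. Socs2 and Cish were lower in tumor: the fold of Socs2 was 0.679 in PKA and 0.747 in WT, and that of Cish 0.512 in PKA and 0.181 in WT. Gm17040, the pseudogene on the opposite strand that overlaps Cish over 1167 bases, went the other way over all annotated cells, with 78 UMIs in PKA tumor and 6 in PKA hyperplasia, and 100 UMIs in WT tumor and 9 in WT hyperplasia. Its part in the Cish stage folds was not tested.

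Mature Luminal cells gave folds of 15.2 in PKA and 10.4 in WT for Cebpb, 7.63 in PKA and 2.70 in WT for Cebpd, and 3.00 in PKA and 3.18 in WT for Socs3. Socs2 of these cells was nearly level between stages in PKA, at 281 CPM in tumor and 316 CPM in hyperplasia, a log2 ratio of -0.17 [-0.40 to 0.07]. In WT it was 113 CPM in tumor and 469 CPM in hyperplasia, -2.05 [-2.30 to -1.80]. The summed fibroblast markers of the WT Mature Luminal cells were 901 CPM in tumor and 609 CPM in hyperplasia, against 30.0 CPM in tumor and 120 CPM in hyperplasia in PKA. Nearly all of the tumor sums was Dcn, as given above, with Col1a2, Col3a1 and Lum at 0, so they need not stand for fibroblast RNA. Their part in the Socs2 stage difference was not tested.

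Tumors and glands also differed in digestion, since glands were treated with trypsin and dispase after a longer incubation and tumors were not. The summed level of 18 immediate early and dissociation genes in Luminal Progenitor 1 cells was 42631 CPM in PKA tumor and 7859 CPM in PKA hyperplasia, and 48548 CPM in WT tumor and 7886 CPM in WT hyperplasia. Fos alone was 27.9-fold higher in PKA tumor and 38.4-fold higher in WT tumor, while Ier3, also among the 18, had folds of 0.959 in PKA and 1.36 in WT. Some genes differed between the stages by far more than any member. The gene of profilin, Pfn1, active in nearly every cell type, was at 34.6 CPM in PKA tumor and 2062 CPM in PKA hyperplasia Luminal Progenitor 1 cells, and at 36.7 CPM in WT tumor and 2132 CPM in WT hyperplasia. Klf2 of PKA cells was at 1142 CPM in tumor and 2.36 CPM in hyperplasia, and Klf2 of WT cells at 1324 CPM in tumor and 1.53 CPM in hyperplasia. No source used here says whether the files of both stages were counted with the same settings and annotation. Stage, age, digestion and any difference in counting cannot be told apart in the stage folds, those of Cebpb and Cebpd included. Between genotypes, the same sum in tumors was 31342 CPM in PKA, against 28575 CPM in WT Mature Luminal cells, 26798 CPM in PKA, against 31448 CPM in WT Lumino-Basal cells, and 20561 CPM in PKA, against 25737 CPM in WT EMT-like cells. Stat3, in the 4 tumor classes, and Cebpb, in Mature Luminal and Luminal Progenitor 1 cells, differed between genotypes to the same side as this sum. So did Cebpd of Mature Luminal and EMT-like cells, at 0.51 and -0.85, and Socs3 and Stat5a of Lumino-Basal cells, at -0.43 and -1.33. Socs2 did so in Luminal Progenitor 1, Mature Luminal and EMT-like cells, at -0.26, 1.32 and -0.57. On the other side of the sum lay Cebpd, Socs3 and Cish of Luminal Progenitor 1 cells, at 0.38, 0.29 and 1.36. There too lay Cebpd and Socs2 of Lumino-Basal cells, at 0.52 and 2.33, Stat5a of Mature Luminal cells, at -0.63, and Cish of EMT-like cells, at 1.98. The share of all genes on the same side as the sum is not given here, so these sides do not set the members apart. The part of the immediate early and dissociation genes in the differences was not tested.

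**Figure D3:**
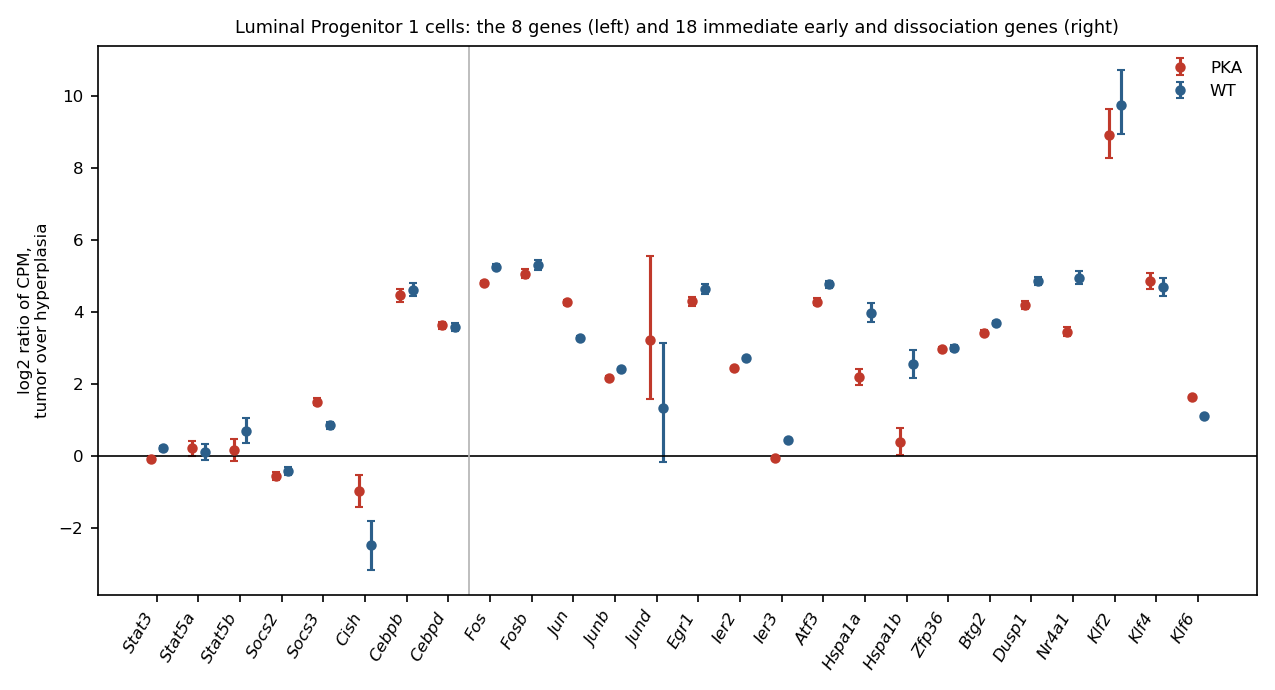
Log2 ratio of CPM, tumor over hyperplasia, in Luminal Progenitor 1 cells for the 8 genes and for 18 immediate early and dissociation genes, PKA in red left of WT in blue, with exact 95% intervals from counting error. Cebpb and Cebpd are at folds of 22.1 and 12.4 in PKA and 24.7 and 11.9 in WT. On the log2 axis Stat3 and Stat5a stay near 0 and Stat5b is at 0.18 in PKA and 0.71 in WT. The 18 genes run from folds of 0.959 (Ier3) to 484 (Klf2) in PKA and from 1.36 (Ier3) to 866 (Klf2) in WT. That range is too wide to set a member apart.

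The share of cells with a UMI depends on the level of a gene as well as on its spread over cells. To compare libraries of unequal depth, 2000 UMIs were drawn at random from each cell, leaving aside cells with fewer. No class is known to lack these genes, so no background share from free RNA could be given. Among Mature Luminal tumor cells 36.6% in PKA (63 of 172; 29.4 to 44.3%) and 18.5% in WT (156 of 845; 15.9 to 21.2%) had a Socs2 UMI, against 76.8% in PKA and 41.3% in WT without thinning. Among Lumino-Basal cells it was 19.0% in PKA (12 of 63; 10.2 to 30.9%) and 4.43% in WT (49 of 1105; 3.30 to 5.82%), against 36.4% in PKA and 9.85% in WT without thinning. At 2000 UMIs per cell such a share depends strongly on the level itself. The Socs2 shares are therefore not a difference separate from that in CPM. Stat5a of Lumino-Basal cells did not part as clearly, with 11.1% in PKA (7 of 63; 4.59 to 21.6%) and 13.9% in WT (154 of 1105; 11.9 to 16.1%), and 18.2% in PKA and 31.5% in WT without thinning.

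In tumor Luminal Progenitor 1 cells the shares differed by less. Cebpd was seen in 65.2% of PKA and 57.8% of WT cells, Cebpb in 63.9% of PKA and 73.7% of WT cells, Socs3 in 36.5% of PKA and 31.3% of WT cells, and Stat3 in 47.1% of PKA and 54.3% of WT cells. The exact 95% intervals of each of these 4 pairs did not overlap, while those of Socs2, Stat5a and Stat5b in the same cells did. These intervals cover counting error only. The share of all genes whose intervals part in this way is not given here, so these 4 pairs do not set the members apart from other genes. Cish was seen in 1.20% of PKA cells (0.771 to 1.78%) and 0.592% of WT cells (0.316 to 1.01%), with overlapping intervals, and in 3.57% of PKA and 0.982% of WT cells without thinning. In hyperplasia Luminal Progenitor 1 cells the shares lay close together, at 49.9% of PKA and 48.8% of WT cells for Stat3, 24.2% of PKA and 25.6% of WT cells for Socs2, and 5.92% of PKA and 5.79% of WT cells for Cebpb. Within tumor Luminal Progenitor 1 cells thinned in the same way, the highest of the correlations between 5 members, that of Cebpd with Socs3, was weak (Spearman 0.26 over 1999 PKA cells and 0.19 over 2195 WT cells).

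**Figure D4:**
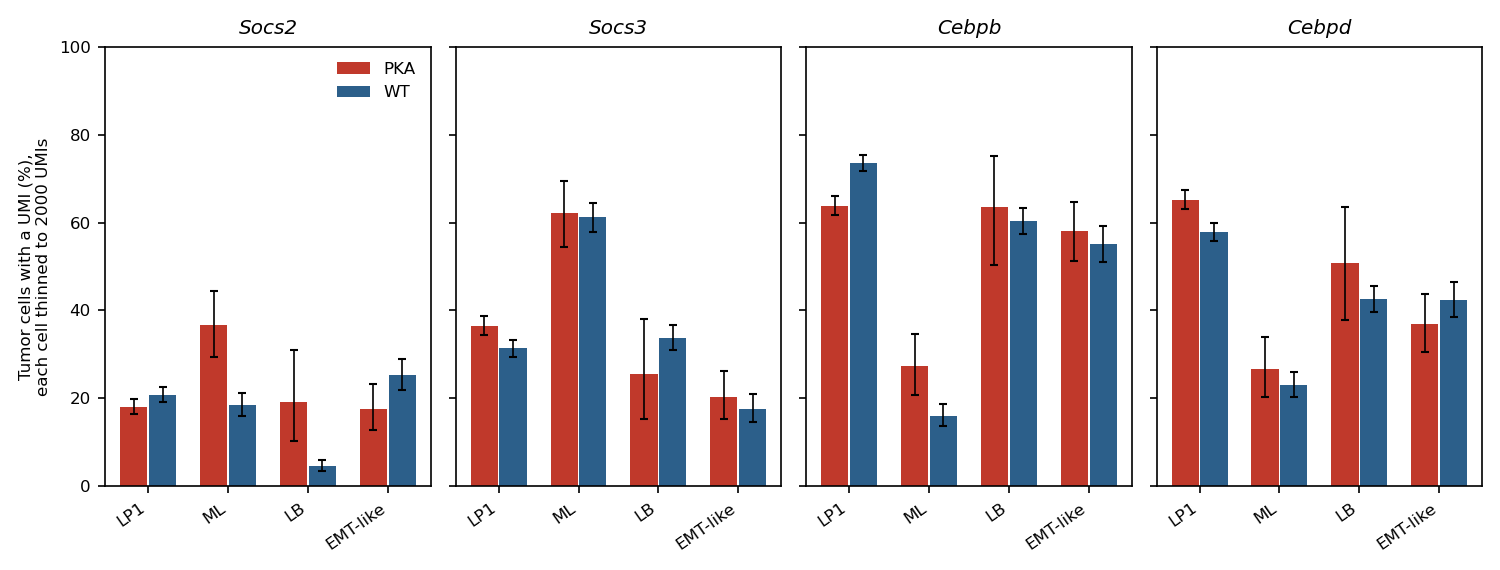
Share of tumor cells (%) with at least 1 UMI of Socs2, Socs3, Cebpb and Cebpd after thinning to 2000 UMIs per cell, PKA in red left of WT in blue, with exact 95% binomial intervals. The pairs that stand farthest apart for Socs2 are Mature Luminal cells, at 36.6% in PKA and 18.5% in WT, and Lumino-Basal cells, at 19.0% in PKA and 4.43% in WT.

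In Luminal Progenitor 1 cells 2.01% of all genes were called higher and 2.63% lower in hyperplasia, and 7.2% and 4.41% in tumor. Among ligands of the network, Il6 was the only one called in these cells, with 5 of 12 ligands measured at each stage. It had 2 UMIs in PKA and 15 in WT hyperplasia and 16 UMIs in PKA and 3 in WT tumor. Lif, a ligand that activates STAT3 in involution, was at 179 CPM in PKA, against 172 CPM in WT hyperplasia, and at 64.6 CPM in PKA, against 83.7 CPM in WT tumor. Of the receptors, 14 were measured in hyperplasia and 15 in tumor Luminal Progenitor 1 cells, and none was called. Il6st, which encodes gp130, was at 57.8 CPM in PKA, against 66.7 CPM in WT hyperplasia, and at 29.8 CPM in PKA, against 16.2 CPM in WT tumor. The oncostatin M receptor gene Osmr was at 166 CPM in PKA, against 114 CPM in WT tumor, and Prlr at 85.7 CPM in PKA, against 49.5 CPM in WT hyperplasia. None of the 4 JAK kinases, 3 other STAT genes and 13 other inhibitors measured was called in Luminal Progenitor 1 cells of either stage. Of 4 other C/EBP genes, Ddit3, an inhibitory partner of C/EBP factors, was called lower in tumor, at 49.6 CPM in PKA, against 103 CPM in WT. In lists this short, so few calls do not set these genes apart from other genes.

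In Lumino-Basal tumor cells, where 7.47% of all genes were called higher and 7.16% lower in PKA, 5 of 14 receptors were higher and 1 lower, with Il6st at 46.4 CPM in PKA, against 16.3 CPM in WT and the interferon gamma receptor gene Ifngr1 at 190 CPM in PKA, against 47.8 CPM in WT. Il11ra1 was the lower one, at 24.4 CPM in PKA, against 54.2 CPM in WT. The following 3 genes are named because they are part of their lists' counts, with their values known. Stat2 was at 41.5 CPM in PKA, against 19.5 CPM in WT, Socs1 at 46.4 CPM in PKA, against 5.99 CPM in WT, and Ptpn2, a phosphatase of JAK and STAT proteins, at 112 CPM in PKA, against 52.9 CPM in WT. The median log2 ratio was 0.44 over the receptors and 0.02 over all genes measured. In Mature Luminal tumor cells, where 7.67% of all genes were called higher, 2 of 14 receptors were, Il6ra at 20.9 CPM in PKA, against 9.42 CPM in WT and the growth hormone receptor gene Ghr at 64.2 CPM in PKA, against 26.6 CPM in WT.

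Of 17 known STAT3 targets none was called in hyperplasia Luminal Progenitor 1 cells, where 2.01% of all genes were called higher and 2.63% lower. In tumor, where 7.2% of all genes were called higher and 4.41% lower, 1 of the 17 was higher and 1 lower, close to those shares. The higher one was the adhesion molecule gene Icam1, at 5.57 CPM in PKA, against 2.29 CPM in WT, and the lower one the mitotic gene Birc5, at 7.08 CPM in PKA, against 19.1 CPM in WT. In Mature Luminal tumor cells 3 of 17 were called higher and 1 lower, beside 7.67% and 2.72% of all genes. In Lumino-Basal cells 4 of 17 were higher and 1 lower, beside 7.47% and 7.16%. Igfbp5, a STAT3 target of involution, was among the higher ones in both, at 454 CPM in PKA, against 194 CPM in WT Mature Luminal cells, and 2077 CPM in PKA, against 602 CPM in WT Lumino-Basal cells. Birc5 was the lower one in Mature Luminal cells, at 2.09 CPM in PKA, against 26.6 CPM in WT.

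Of 10 STAT5 targets measured in hyperplasia Luminal Progenitor 1 cells, 3 were lower and none higher in PKA, beside 2.63% and 2.01% of all genes, and all 3 encode caseins. The median log2 ratio of the list was -0.04, beside -0.01 for all genes measured. Csn1s1 was at 55.1 CPM in PKA, against 768 CPM in WT, Csn2 at 44.3 CPM in PKA, against 436 CPM in WT, and Csn1s2a at 160 CPM in PKA, against 385 CPM in WT. Stat5a of the same cells was at 39.0 CPM in PKA, against 37.6 CPM in WT. In tumor Luminal Progenitor 1 cells, beside 7.2% of all genes higher and 4.41% lower, 1 of 9 was higher, Csn1s2a at 6.87 CPM in PKA, against 2.95 CPM in WT, and 2 lower, Csn1s1 at 27.3 CPM in PKA, against 159 CPM in WT and the cyclin gene Ccnd1 at 34.99 CPM in PKA, against 102 CPM in WT. In Lumino-Basal cells, where Stat5a was lower in PKA, 6 of 10 were lower and none higher, beside 7.16% and 7.47% of all genes, with a median log2 ratio of -1.83 beside 0.02 for all genes measured; Csn1s1 was at 22.0 CPM in PKA, against 107 CPM in WT.

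The C/EBP and acute phase list gave the most calls in Luminal Progenitor 1 cells. Its median log2 ratio there was 0.96 in tumor and 0.22 in hyperplasia, beside 0.01 and -0.01 for all genes measured. In hyperplasia Luminal Progenitor 1 cells, beside 2.01% of all genes higher and 2.63% lower, 2 of 11 were higher in PKA, lactoferrin (Ltf) at 769 CPM in PKA, against 294 CPM in WT and the chemokine gene Cxcl1 at 1059 CPM in PKA, against 397 CPM in WT. Lower were 3 of 11, the complement gene C3 at 24.97 CPM in PKA, against 161 CPM in WT, haptoglobin (Hp) at 84.0 CPM in PKA, against 203 CPM in WT, and Il6. In tumor, beside 7.2% of all genes higher and 4.41% lower, 5 of 11 were higher, among them serum amyloid Saa1 at 2813 CPM in PKA, against 423 CPM in WT, Saa3 at 23.1 CPM in PKA, against 5.43 CPM in WT, and Orm1 with 72 UMIs in PKA and 1 in WT. The other two were Il6 and Saa2, at 1381 CPM in PKA, against 119 CPM in WT, which is named with its values known and whose reads may be shared with its near copy Saa1. Lower were 2 of 11, Hp at 60.6 CPM in PKA, against 248 CPM in WT and the prostaglandin synthase gene Ptgs2 at 1.45 CPM in PKA, against 32.8 CPM in WT. Saa1 was higher in PKA in the 4 tumor classes, with 468 CPM in PKA, against 53.3 CPM in WT Mature Luminal cells, 766 CPM in PKA, against 34.9 CPM in WT Lumino-Basal cells, and 1818 CPM in PKA, against 177 CPM in WT EMT-like cells, while Cebpd was higher in 3 of those classes and lower in EMT-like cells. The list median was 0.93 in Mature Luminal, 2.19 in Lumino-Basal and -0.47 in EMT-like tumor cells, beside 0.12, 0.02 and 0.06 for all genes measured. In EMT-like cells 2 of 8 were called higher and 3 lower, beside 7.02% and 4.56% of all genes.

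Over the 16 combinations of library and class, each stage centred on its own mean, the members did not share 1 pattern. The points share libraries and depth, so the correlations are descriptions. Cebpb and Cebpd went together (Pearson 0.79 on the scale of log2(CPM + 10)), and Stat3 went with both (0.71 each), whereas Stat5a ran with Stat5b (0.71) and against Cebpb (-0.73). Among 5814 genes searched, those most like each member were Nr4a2 and Nr4a1 for Stat3 (0.90 and 0.88), the second of which is on the immediate early list, Cox4i1 and Dnpep for Stat5a (0.96 each), Cox14 for Stat5b (0.93) and Ccnl1 for Cebpb (0.93). For Socs3 they were Egfl7 and Cavin1 (0.91 and 0.90), for Cish Plekhj1 (0.81) and for Socs2 Iigp1 and Cry2 (0.81 each). For Cebpd they were Ncoa7 (0.86), Zc2hc1a (0.83) and Cd14 (0.82), the last of which is 1 of the markers that the authors used to name progenitor cells. Cish reached at most 12.6 CPM and Stat5b 31.6 CPM, under the 50 CPM asked of the genes searched. Their correlations therefore rest in part on very few UMIs, and their matches may be largely counting error.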

How the data were processed

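Deposited UMI counts per gene and barcode were used with the class that the authors gave each cell, which the series design says was assigned with Monocle2. Build GRCm38/mm10, featureCounts of Subread 1.6.0, STAR 2.5.3a and Cell Ranger are listed in the submitters' processing notes. The authors' per-cell tables also give the fraction of mitochondrial UMIs, used as deposited in 1 alternative. Totals of annotated cells ran from 10648097 to 24499374 UMIs. Barcodes that the authors left unannotated (1040 in PKA hyperplasia, 1371 in WT hyperplasia, 296 in PKA tumor and 619 in WT tumor) entered 1 alternative only, and no doublet caller was run. Groups were taken from sample titles.

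Ratios of CPM carry exact conditional binomial intervals, levels exact Poisson and shares exact Clopper-Pearson intervals, all at 95% and for counting error only. Thinning drew UMIs without replacement (seed 1). List medians add 0.5 UMIs to each sum. Patterns were compared by Pearson's r among genes reaching 50 CPM. The code was tested on simulated data. Software was edgeR 4.0.16 in R 4.3.3, and pandas 2.3.3, SciPy 1.17.1, NumPy 2.4.6 and matplotlib 3.10.9 in Python 3.11.15.

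The 8 genes and all lists were chosen with earlier results of these data known. List genes reaching 50 UMIs over the pair of libraries could be named when called in Luminal Progenitor 1 cells or in 2 classes of a stage, at most 5 a list and stage, as could any ligand or receptor. Alternatives were TMM scaling (edgeR), totals without mitochondrial, ribosomal and milk genes, means of each cell's CPM, cells of 500 genes or more whose mitochondrial share was 10% or less, leaving out the 5% of cells with the most UMIs, equal class weights, a fold of 1.5, other UMI minimums and other thinning.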

Additional observations from a re-analysis of the deposited data

Results flagged for a closer look

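For 5 of the 8 genes the PKA over WT log2 ratio lay on opposite sides of 0, each beyond its counting interval, in 2 classes of a stage or in 1 class at the 2 stages. With 1 library per group these differences were not tested, and 16 such pairs were found. The intervals cover counting error only. The share of all genes that change sides in this way is not given here, so the count does not set the members apart from other genes. Socs2 was higher in PKA Mature Luminal and Lumino-Basal tumor cells, at 1.32 and 2.33, and lower in PKA Luminal Progenitor 1 tumor cells at -0.26, in EMT-like tumor cells at -0.57 and in Mature Luminal cells of hyperplasia at -0.57. Cebpd was lower in PKA EMT-like tumor cells at -0.85, against 0.38, 0.51 and 0.52 in Luminal Progenitor 1, Mature Luminal and Lumino-Basal tumor cells. In hyperplasia Cebpd was at -0.98 in Mature Luminal cells and 0.32 in Luminal Progenitor 1 cells. Stat3 was higher in PKA Mature Luminal tumor cells at 0.48, and lower in Luminal Progenitor 1 at -0.26, Lumino-Basal at -0.27 and EMT-like tumor cells at -0.73. Socs3 of Luminal Progenitor 1 cells was at 0.29 in tumor and -0.36 in hyperplasia, and Lumino-Basal tumor cells were at -0.43. Cebpb was at 0.74 in Mature Luminal and -0.20 in Luminal Progenitor 1 tumor cells.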

How the results depend on the processing

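No paired analysis was possible because each group is 1 library. For the same reason no library could be left out, and depth limits Cish and Stat5b most. Of the 5 pairs called in tumors, 4 held under 6 of 6 alternatives: log2 ratios ran from 1.11 to 1.38 for Cish in Luminal Progenitor 1 cells, 1.12 to 1.41 for Socs2 in Mature Luminal cells, 2.15 to 2.54 for Socs2 and -1.70 to -1.33 for Stat5a in Lumino-Basal cells. Cish in EMT-like cells ran from 1.52 to 2.00. The count of 0 calls in hyperplasia became 1 when mitochondrial, ribosomal and milk genes were taken out of the totals and with cells of at least 500 genes (Cebpd in Mature Luminal cells, -1.02 and -1.11), and 1 under the mean of each cell's CPM and without the deepest 5% of cells (Socs2 in Basal cells, -1.17 and -1.01). A fold of 1.5 gave 3 calls in hyperplasia, 9 in tumors and 2 over all cells (Cish and Cebpd in tumors, against 0 at 2-fold), while 9.59% of all genes in hyperplasia and 21.1% in tumor Luminal Progenitor 1 cells were then called. TMM scaling moved log2 ratios by 0.13 in Mature Luminal cells of hyperplasia and by -0.19, -0.18 and -0.12 in Mature Luminal, Lumino-Basal and EMT-like tumor cells, so that Stat3 and Cebpd of Mature Luminal tumor cells were at 0.29 and 0.32. Ratios whose intervals held 0 changed sign under TMM for Socs3 in Mature Luminal (-0.14) and EMT-like tumor cells (-0.06), Cebpb in Lumino-Basal (-0.06) and Stat5b in EMT-like cells (-0.02). The ratio of Cebpb over all tumor cells was 0.21 as summed and -0.00 with classes weighted equally. Leaving out marker-positive cells and leaving out the cell with the most UMIs were chosen after the data were seen; without the latter, Cish in EMT-like cells was at 2.18 with an interval that held 0. Of 497 log2 ratios under alternatives, 471 stayed inside the counting interval and none of a called pair changed sign.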
